A study of Mus musculus with 9 samples.

Results

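The comparison described here is the last step of an allelic series of the mouse miR-17~92 cluster: the loss of miR-19 from an allele on which miR-19 was all that remained of the cluster. It set the library of the full deletion of the cluster (labelled full cluster KO) against the library of the miR-19-only allele (labelled miR-17,18,92 deleted), which by their labels differ in the miR-19a and miR-19b-1 hairpins alone. These were 2 of the 9 libraries in the table, chosen by their labels, and all 986 mature miRNA rows were read in them. The same loss was then followed in the intact background, as the library with miR-19 deleted (ΔmiR-19) over the wild-type library, which carries the full cluster. The remaining genotypes, ΔmiR-17, ΔmiR-18, ΔmiR-92 and ΔmiR-17,18, served only to show the range a miRNA spans in the series. All embryos were of embryonic day 9.5, were labelled female, and had lost heart and tail bud to dissection before RNA was taken. Each genotype had 1 library, with 7070844 to 12342926 reads in the miRNA rows for the 4 compared, and the labels name no number of embryos or litters behind a library. A difference between 2 libraries therefore has no replicate check. In samples of embryos dissected in this way, fewer cells of a type and less RNA per cell cannot be told apart.

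A mature miRNA is a short RNA cut from a hairpin. It guides Argonaute proteins to messenger RNAs that pair with its seed, here bases 2 to 8 from the 5′ end, and these messages are then repressed. The miR-17~92 cluster is transcribed as 1 long RNA, Mir17hg, that holds the hairpins of 4 seed families. The miR-19 family is known for its part in lymphomas driven by Myc. A second copy of the miR-19b hairpin, Mir19b-2, lies in the paralogous miR-106a cluster on the X chromosome and was not targeted.

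The hairpins that separate the full deletion from the miR-19-only allele are shown first, since by the labels they are all that the step removed, with the untouched paralog for comparison. Mature arms listed by RefSeq are in capitals, 5′ to 3′, and positions are those of GRCm38.
Mir19a, chr14:115044000-115044081, plus strand: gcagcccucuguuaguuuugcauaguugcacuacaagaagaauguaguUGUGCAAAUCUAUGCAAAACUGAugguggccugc
Mir19b-1, chr14:115044305-115044391, plus strand: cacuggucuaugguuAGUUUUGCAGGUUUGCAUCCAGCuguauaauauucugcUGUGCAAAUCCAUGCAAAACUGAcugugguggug
Mir19b-2, chrX:52741983-52742066, minus strand: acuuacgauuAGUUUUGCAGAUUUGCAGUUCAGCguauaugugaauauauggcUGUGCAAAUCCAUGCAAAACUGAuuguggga
Mir19a and Mir19b-1 overlap an annotated exon of Mir17hg. The mature 3p arms are shown next because the residual level after the deletion turns on them, with the seed in capitals.
miR-19a-3p: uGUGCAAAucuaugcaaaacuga
miR-19b-3p: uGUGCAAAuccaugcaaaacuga
They share the seed GUGCAAA and differ by 1 base, U11C from miR-19a-3p to miR-19b-3p, counted from the 5′ end. miR-19b-3p from Mir19b-1 and from Mir19b-2 is the same sequence, so its reads do not tell the hairpins apart. The 5p arm does: miR-19b-1-5p belongs to the deleted hairpin and miR-19b-2-5p to the paralog.

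The deleted arms were nearly or wholly gone in the full deletion, as the labels say. Levels are given as nRPM, the deposited normalized value brought to the scale of RPM, the usual unit of reads relative to the size of the library. The level of miR-19a-3p was 9621 nRPM in the wild-type library, 15.1 in ΔmiR-19, 3157 in miR-19-only and 4.93 in the full deletion. The full deletion thus held 0.156% of the miR-19-only level (95% interval 0.115 to 0.208%), and ΔmiR-19 held 0.157% of the wild-type level (0.133 to 0.185%). Intervals here are exact and cover counting error only, since PCR reads without molecular identifiers are not independent molecules. For miR-19a-5p the wild-type library held 360 reads, miR-19-only 125, and both libraries that lack the hairpin 0. In place of the 0, 3 reads would be 3.64% of the miR-19-only level and 0.560% of the wild-type level. The upper ends of the exact intervals were 4.54% and 0.692%. Reads of miR-19b-1-5p numbered 609 in the wild-type library, 1837 in miR-19-only and 0 in both deletions. Here 3 reads would be 0.247% of the miR-19-only level and 0.331% of the wild-type level, with upper ends of 0.305% and 0.408%.

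miR-19b-3p was the only deleted arm that kept an appreciable level. It stood at 26894 nRPM in wild type, 1541 in ΔmiR-19, 67216 in miR-19-only and 2852 in the full deletion, so that 4.24% (4.19 to 4.29%) remained in the full deletion and 5.73% remained in ΔmiR-19. The paralog's own arm, miR-19b-2-5p, was present in every one of the 4 libraries, at 7.67, 15.4, 18.3 and 8.29 nRPM in the same order. How much of the remaining miR-19b-3p came from the paralog was not tested. Summed over the 4 deleted arms, miR-19 went from 70509 nRPM in miR-19-only to 2857 in the full deletion, 24.7-fold lower, and from 36667 nRPM in wild type to 1556 in ΔmiR-19, 23.6-fold lower. These arms took 8.25% of the reads in all miRNA rows of the miR-19-only library and 0.301% of those of the full deletion. In the intact background the shares were 3.31% and 0.159%.

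**Figure D1:**
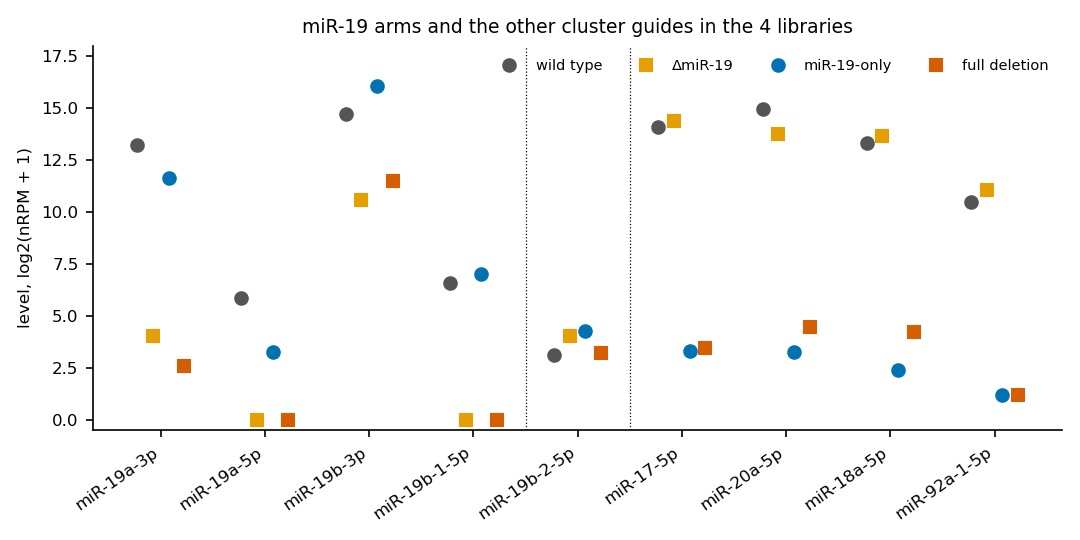
Levels of the miR-19 arms, the paralog arm miR-19b-2-5p and the 5p arms of the other cluster hairpins in wild type, ΔmiR-19, miR-19-only and full deletion, as log2(nRPM + 1), 1 point per library. miR-19a-5p and miR-19b-1-5p sit at 0 in both libraries without the hairpins, and miR-17-5p, miR-20a-5p, miR-18a-5p and miR-92a-1-5p lie far below wild type and ΔmiR-19 in both miR-19-only and full deletion.

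The 2 miR-19 guides did not stand in the same proportion in the 2 starting libraries. miR-19b-3p was 2.80 times as abundant as miR-19a-3p in wild type and 21.3 times in miR-19-only. For the other genotypes that keep both, it was 7.81 (ΔmiR-17), 1.87 (ΔmiR-18), 2.95 (ΔmiR-92) and 8.81 (ΔmiR-17,18), so miR-19-only was the highest of the 6 libraries that keep both hairpins. Its miR-19a-3p level of 3157 nRPM was also the lowest of those 6. The step from miR-19-only thus took away less miR-19a-3p and more miR-19b-3p than the step from wild type.

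The rest of the cluster was already scarce on both sides, except for the lower row of miR-92a-3p. miR-17-5p, the guide of the family that targets cell-cycle inhibitors, stood at 8.87 nRPM in miR-19-only and 10.1 in the full deletion, against 17331 in wild type. miR-20a-5p stood at 8.66 and 21.0 nRPM, miR-18a-5p at 4.30 and 17.3, and miR-92a-1-5p at 1.25 and 1.26. miR-17-3p stood at 1.18 and 0.105 nRPM and miR-18a-3p at 0.346 and 0, while miR-20a-3p was at 0 reads in both. miR-92a-3p has 2 rows in the table, of which the higher was taken as the cluster copy after its values had been seen. That row stood at 546 nRPM in miR-19-only and 682 in the full deletion, against 199542 in wild type. The other row, lower in total reads, stood at 8491 nRPM in miR-19-only and 9800 in the full deletion, against 22952 in wild type. It was set aside with the cluster, and no source used here says which locus each row stands for.

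Outside the cluster, 319 of 973 miRNA rows averaged at least 100 nRPM over the 8 genotype libraries and were compared. The other 654 were below that level. In the full deletion 42 of the 319 (13.2%) differed from miR-19-only by 2-fold or more, 19 of them (5.96%) higher and 23 (7.21%) lower. In ΔmiR-19, 31 (9.72%) differed from wild type by as much, 11 (3.45%) higher and 20 (6.27%) lower. Most of the profile was close: 199 of the 319 (62.4%) lay within 1.5-fold in the step from miR-19-only and 226 (70.8%) in the intact background. The split between higher and lower depended on the scaling. With plain read totals it was 15 higher and 33 lower for the step from miR-19-only and 19 higher and 14 lower for the intact background. With totals of reads outside the cluster it was 10 and 40, and 12 and 17. Plain totals move the median log2 ratio of the compared miRNAs by -0.15 in the first step and 0.18 in the second, and totals outside the cluster move it by -0.27 in the first.

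The miRNAs higher in the full deletion were led by miR-148b-3p, a member of the miR-148 and miR-152 family. It stood at 1899 nRPM in miR-19-only and 9165 in the full deletion, a ratio of 4.83 (4.76 to 4.89). The other 6 genotype libraries lay between 5282 and 7624 nRPM, so both libraries of the step fell outside the rest, miR-19-only below and the full deletion above. miR-744-5p stood at 2099 and 7898 nRPM and miR-434-5p, encoded in the imprinted Dlk1-Dio3 region, at 1085 and 3826. In the intact background the same 3 miRNAs had log2 ratios of 0.17, 0.07 and -0.08 and therefore were about level. miR-126-5p, whose hairpin lies in the endothelial gene Egfl7, stood at 1318 and 4029 nRPM, and its partner miR-126-3p at 6053 and 12180. miR-708-5p went from 349 to 871 nRPM, miR-154-3p from 597 to 1454 and miR-423-5p from 107 to 261. For miR-423-5p the other 6 libraries lay between 154 and 702 nRPM, so miR-19-only alone was below them.

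The miRNAs lower in the full deletion were led by miR-199a-5p, described below, and by miR-1197-3p, another product of the Dlk1-Dio3 region. miR-1197-3p stood at 1910 nRPM in miR-19-only and 299 in the full deletion, while the other 6 libraries lay between 162 and 401. miR-19-only alone was high for it. miR-33-5p, which is encoded in the sterol regulator gene Srebf2, went from 256 to 47.8 nRPM, with the other 6 libraries between 82.9 and 214. miR-181a-1-3p went from 429 to 126 nRPM, miR-199b-5p from 255 to 80.5, miR-135a-5p from 767 to 280, miR-485-5p from 227 to 85.5 and miR-181c-3p from 330 to 136. In the intact background miR-1197-3p and miR-33-5p had log2 ratios of 0.67 and 0.84, and miR-199b-5p and miR-181c-3p of -0.67 and -0.57.

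**Figure D2:**
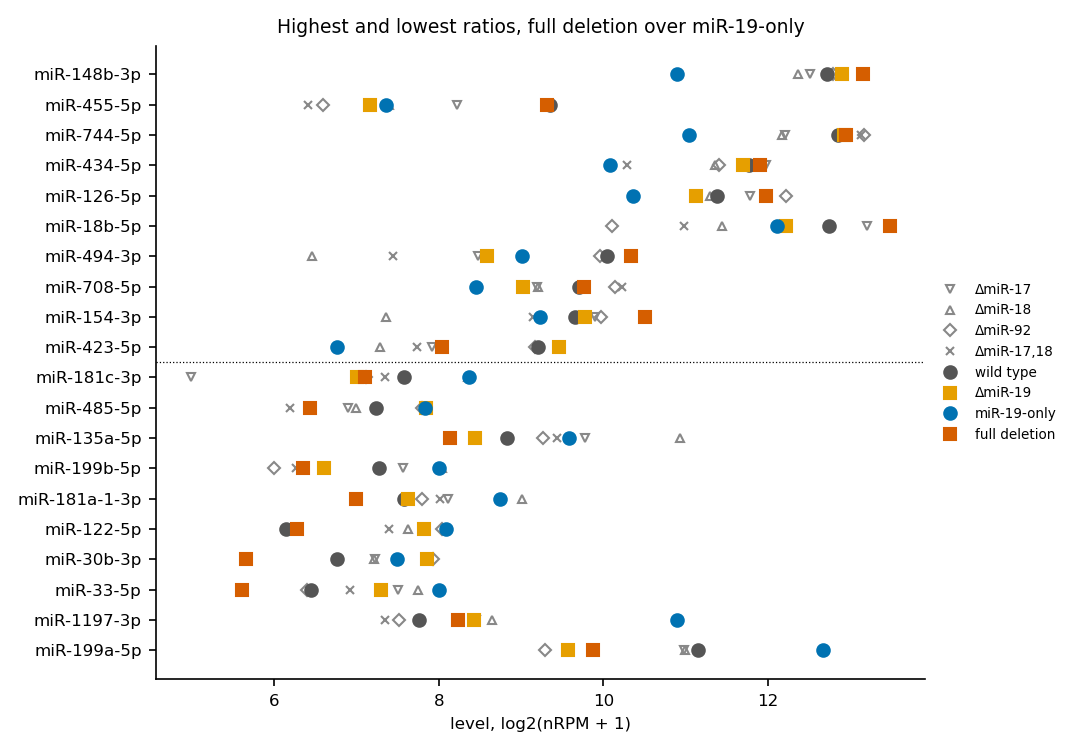
Levels, as log2(nRPM + 1), of the 10 highest and 10 lowest ratios of full deletion over miR-19-only, 1 point per genotype library, with the 4 compared libraries in filled symbols. For miR-148b-3p, miR-744-5p and miR-1197-3p the miR-19-only library lies outside the range of the other 6.

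The remaining 22 of the 42 had ratios closer to the 2-fold limit, with log2 ratios from -1.26 to -1.01 and from 1.0 to 1.26, and 3 of them were lower in both steps and are described below. They included miR-93-5p, an abundant guide with the miR-17 seed (36702 to 76211 nRPM), miR-103-3p (13103 to 30404) and miR-30d-5p (8149 to 16775) on the higher side, and miR-32-5p (372 to 170) and miR-153-3p (436 to 191) on the lower side. miR-126-3p (1.01) and miR-214-3p (-1.01) lay just inside the limit, and miR-151-5p (0.99), miR-199b-3p (-0.98) and miR-382-5p (0.97) just outside. Some rows hold the same reads more than once, such as miR-299-3p and miR-299b-5p, or miR-136-3p and miR-3071-5p. With nearly identical rows counted once, 40 of 307 miRNAs were past 2-fold, 18 higher and 22 lower.

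Which of the libraries stood apart differed among the 42. miR-19-only lay outside the range of the 6 remaining genotypes for 22 of them, against 86 of all 319 compared (27.0%), and the full deletion for 16, against 113 (35.4%). Both lay outside for 5 and neither for 9. The 42 were chosen because these 2 libraries differ by 2-fold or more, which by itself favours values outside the range. The shares of all 319 are therefore no even background for the 22 and the 16. The 2 arms of a hairpin come from 1 precursor, and 35 of the 42 had a partner arm averaging at least 10 nRPM. In 25 of these the partner's ratio had the same sign, beside 135 of 226 compared miRNAs with such a partner (59.7%), and in 11 of the 25 it was also past 2-fold. These 11 come from 6 hairpins, those of miR-126, miR-154, miR-181c, miR-214, miR-32 and the overlapping pair miR-136 and miR-3071, since some are counted from both arms. How many of the 226 had a partner past 2-fold the same way was not counted, so the 11 have no background beside them. In the other 10 the partner had the opposite sign and 0 were past 2-fold that way. miR-148b-5p had a log2 ratio of 0.43 beside 2.27 for its partner, and miR-744-3p had -0.55 beside 1.91.

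Sequences could be compared for part of the 42. Of the 319 compared miRNAs, 253 were matched by name to RefSeq, and 34 of the 42 were among them. Those 34 held 33 seeds, and the single shared seed belonged to miR-181a-1-3p and miR-181c-3p. The other 8, miR-199b-5p among them, were not matched, so seeds that they share with each other or with the 34 are not counted. None of the 253 matched miRNAs outside the cluster had the miR-19 seed GUGCAAA. The median GC content was 47.6% for the higher, 40.9% for the lower and 47.4% for all 253 matched.

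Side by side, the 2 steps showed little in common outside the cluster. They share no library, although all 4 come from 1 stage and 1 normalization. Across the 319 miRNAs the log2 ratios of the 2 steps had r = 0.01 and rho = 0.05, given as a description since miRNAs are not independent replicates. The sign was the same in 176 of the 319 (55.2%). Of the 23 lower in the full deletion, 12 were also below wild type in ΔmiR-19, and of the 19 higher, 8 were above it. Of all 319, 173 (54.2%) were above wild type in ΔmiR-19. Past 2-fold in both steps were 8 miRNAs, which make up 19% of those past 2-fold in the step from miR-19-only and 25.8% of those in the intact background. Of these, 4 were lower in both (1.25% of the 319), 0 were higher in both (0.0%) and 4 went opposite ways (1.25%).

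**Figure D3:**
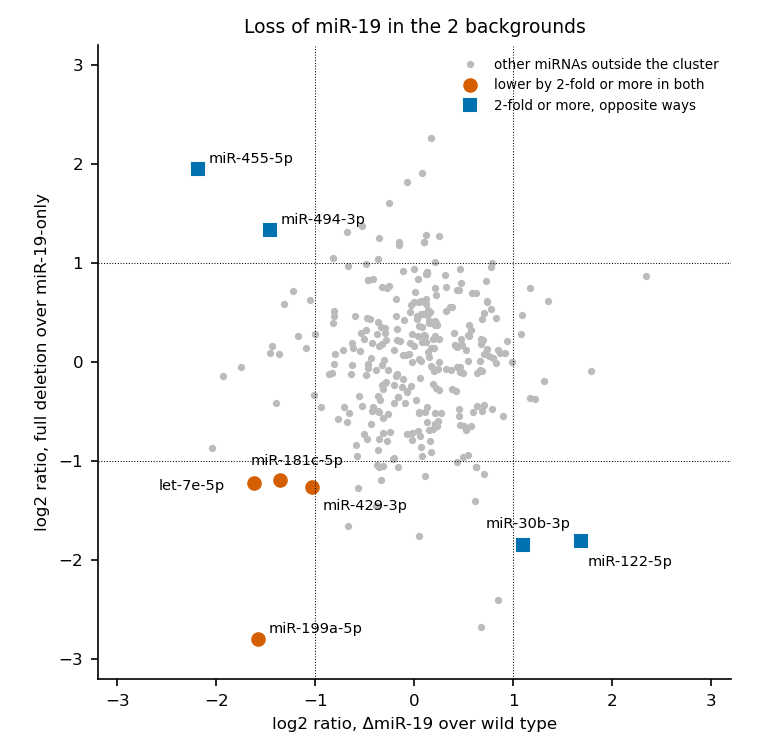
Log2 ratio of full deletion over miR-19-only (vertical axis) against log2 ratio of ΔmiR-19 over wild type (horizontal axis) for the 319 compared miRNAs outside the cluster, 1 point per miRNA, with dotted lines at 2-fold. The 4 miRNAs lower in both steps lie at the lower left, the 4 that went opposite ways at the upper left and lower right, and the upper right corner is empty.

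The miRNAs lower in both steps were let-7e-5p, miR-429-3p, miR-181c-5p and miR-199a-5p. Their sequences are given because they have 4 different seeds, in capitals.
miR-199a-5p: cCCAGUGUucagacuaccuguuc
miR-181c-5p: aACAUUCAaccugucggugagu
let-7e-5p: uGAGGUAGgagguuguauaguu
miR-429-3p: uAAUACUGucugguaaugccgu
None of the 4 seeds is that of miR-19.

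miR-199a-5p, a miRNA of mesenchymal cells, had the lowest ratio of them in the step from miR-19-only, and let-7e-5p in the intact background. miR-199a-5p stood at 2277 nRPM in wild type, 761 in ΔmiR-19, 6517 in miR-19-only and 939 in the full deletion. The full deletion held 0.144 of the miR-19-only level (0.141 to 0.147) and ΔmiR-19 held 0.334 of the wild-type level (0.325 to 0.344). Among the genotypes that keep miR-19, ΔmiR-17 and ΔmiR-18 stood at 2015 and 2032 nRPM, close to wild type, while ΔmiR-92 and ΔmiR-17,18 stood at 627 and 926. The latter 2 lie in the same range as the libraries without miR-19, so the level of miR-199a-5p did not separate genotypes with miR-19 from those without it. miR-199a-5p is made from Mir199a-2 (chr1:162217814-162217923, plus strand, in an exon of Dnm3os and opposite to an intron of Dnm3) and Mir199a-1 (chr9:21496495-21496564, minus strand, opposite to an intron of Dnm2).

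Its relatives and neighbours differed unequally. The other arm of the hairpin, miR-199a-3p, stood at 6743 nRPM in wild type, 5821 in ΔmiR-19, 9120 in miR-19-only and 4660 in the full deletion, log2 ratios of -0.97 in the step from miR-19-only and -0.21 in the intact background. miR-214-5p, from the hairpin next to Mir199a-2 in Dnm3os, stood at 75.8, 35.7, 234 and 44.1 nRPM in the same order, log2 ratios of -2.38 and -1.07. miR-214-5p averaged under 100 nRPM and was not among the 319. miR-214-3p went from 182 to 90.1 nRPM without miR-19 in the deleted background and from 63.7 to 86.0 in the intact one, opposite directions. miR-199b-5p, close in name but not matched to a sequence here, had log2 ratios of -1.65 in the step from miR-19-only and -0.67 in the intact background.

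miR-181c-5p, of a family known from lymphocyte development, stood at 1188 nRPM in wild type, 461 in ΔmiR-19, 4153 in miR-19-only and 1822 in the full deletion. The ratios were 0.439 from miR-19-only and 0.388 from wild type. The other 4 genotypes lay between 783 and 2273 nRPM, so miR-19-only was above and ΔmiR-19 below all of them, and the full deletion, without miR-19, was above wild type. Its hairpin lies in an intron of Nanos3 (mature arms at chr8:84178885-84178945, minus strand). miR-181a-5p has the same seed and was also lower without miR-19 in both backgrounds, with log2 ratios of -0.84 and -0.59. miR-181d-5p, from the hairpin beside Mir181c, had -0.71 and -0.25. The higher row of miR-181b-5p had -0.71 and -0.02. Under plain totals the second ratio of miR-181b-5p changes sign, so its direction in the intact background is not settled.

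let-7e-5p, of the family that rises as cells differentiate, stood at 368 nRPM in wild type, 119 in ΔmiR-19, 829 in miR-19-only and 355 in the full deletion. ΔmiR-19 was the lowest and miR-19-only the highest of the 8 genotypes, the other 4 lying between 378 and 765 nRPM. Other miRNAs of the let-7 seed did not share this pattern: let-7a-5p, which differs from let-7e-5p by U9G counted from the 5′ end of let-7a-5p, had log2 ratios of -0.60 and 0.13, let-7f-5p had -0.11 and 0.49, and let-7i-5p had 0.51 and 0.15. The let-7e hairpin (chr17:17830352-17830444, plus strand) lies in an intron of Spaca6, and its neighbours miR-99b-5p and miR-125a-5p had log2 ratios of -0.67 and 0.19, and of -0.79 and -0.27.

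miR-429-3p belongs to the miR-200 family, which is typical of epithelia and represses the Zeb factors. It stood at 1566 nRPM in wild type, 765 in ΔmiR-19, 1145 in miR-19-only and 479 in the full deletion. ΔmiR-18 at 780 nRPM and ΔmiR-17,18 at 439 were as low although both keep miR-19. Its ratio in the intact background, 0.488 (0.474 to 0.503), lay at the 2-fold limit. With plain totals or totals outside the cluster it left the group and miR-293-5p entered, while the other 3 stayed under all 5 other scalings. miR-200b-3p and miR-200c-3p share its seed and had log2 ratios of 0.75 and -0.28, and of 0.62 and 0.06. Mir429 (chr4:156053905-156053987, minus strand) overlaps an exon of the transcript Gm13648 and an intron of Ttll10. miR-200a-3p, from the same stretch of chromosome 4, had 0.18 and -0.33.

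**Figure D4:**
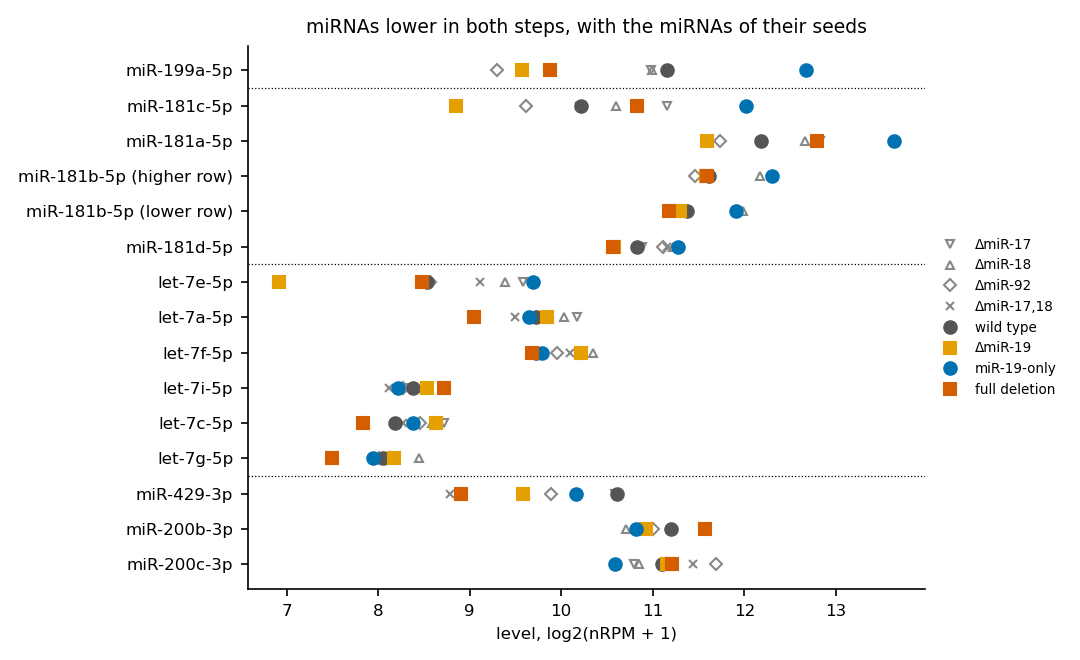
Levels, as log2(nRPM + 1), of the 4 miRNAs lower in both steps and of the miRNAs matched to the same seed that averaged at least 100 nRPM, 1 point per genotype library, seeds separated by dotted lines. miR-181a-5p has the order of miR-181c-5p in the 4 filled libraries, whereas let-7a-5p, let-7f-5p, miR-200b-3p and miR-200c-3p do not follow let-7e-5p or miR-429-3p.

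The 4 that went opposite ways were led by miR-455-5p, which lies in an intron of the cartilage collagen gene Col27a1. It stood at 654 nRPM in wild type, 143 in ΔmiR-19, 163 in miR-19-only and 633 in the full deletion, so wild type and the full deletion were high and the libraries in between low. The other 4 genotypes lay between 84.2 and 297 nRPM. miR-494-3p, from the Dlk1-Dio3 region, had the same pattern at 1053, 383, 513 and 1295 nRPM, with ΔmiR-92 also high at 998. miR-122-5p, the abundant miRNA of liver, had the reverse pattern at 69.4, 225, 271 and 76.7 nRPM, and ΔmiR-17 was as low at 71.1. miR-30b-3p stood at 107, 231, 179 and 49.2 nRPM. The partner arms miR-455-3p and miR-30b-5p had the same sign in both steps, with log2 ratios of 0.73 and 0.45, and of -0.60 and -0.68. miR-494-5p had opposite signs, 0.32 and -0.66, and miR-122-3p averaged only 1.01 nRPM.

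The mean change over the 2 steps was tested with limma on log2(nRPM + 1) over the 4 libraries. The fit had a term for the background and a term for the loss of miR-19. It leaves 1 residual degree of freedom, and the spread used was wholly the one shared across miRNAs of similar level. The p-values thus set the mean of 2 single-library differences of unlike genotypes against that spread. They do not measure how well the 2 steps of a miRNA coincide. miR-148b-3p, with log2 ratios of 2.27 and 0.17, had an unadjusted p of 0.00403 by limma. Of 551 miRNAs averaging at least 10 nRPM, 5 (0.907%) passed an adjusted p of 0.05 and all 5 fell. They were the 4 deleted miR-19 arms and miR-199a-5p, whose log2 change was -2.19 ± 0.44 (SE, adjusted p = 0.000127 by limma, lower in both of 2 steps). None outside the cluster rose by limma, and 32 of the 538 tested outside had an unadjusted p under 0.05. edgeR's quasi-likelihood test and DESeq2 on the recovered reads also called miR-199a-5p alone outside the cluster, at adjusted p of 0.000382 and 0.000285. Of the 538 tested outside, 23 and 24 had an unadjusted p under 0.05 by edgeR and DESeq2. In a limma fit over all 8 genotypes with a term for each family, the call was lost (log2 -1.11, adjusted p = 0.959 by limma). In that fit 4 of 551 (0.726%) passed and 0 of these were outside the cluster, with 17 of 538 outside at an unadjusted p under 0.05. With totals outside the cluster the log2 difference was -2.30, as large as before, and the adjusted p by limma was 0.0804.

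The next miRNAs by limma missed the threshold. miR-302c-3p, of a pluripotency cluster, stood at 55.8 nRPM in wild type, 287 in ΔmiR-19, 212 in miR-19-only and 388 in the full deletion, log2 1.61 at an adjusted p of 0.0516 by limma. The other 4 genotypes lay between 185 and 329 nRPM, so wild type alone was low. It passed with a 100 nRPM minimum (adjusted p = 0.0485 by limma) and with median-ratio factors of the 4 libraries (0.04995). miR-214-5p had a log2 difference of -1.72 at the same adjusted p of 0.0516, miR-293-5p -1.46 at 0.111 and let-7e-5p -1.42 at 0.127. miR-181c-5p and miR-429-3p had adjusted p of 0.210 and 0.460 by limma.

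By group, the paralogous miR-106a cluster on the X chromosome had 6 members with at least 100 nRPM. All 6 lay above miR-19-only in the full deletion, beside 174 of all 319. Of the 6, 1 was past 2-fold, beside 13.2% of all compared. With totals outside the cluster 4 of the 6 lay above, beside 116 of 319, and the median log2 ratio of the cluster was 0.50 in place of 0.76. The median for all 319 was 0.09, and in the intact background the medians were 0.30 for the cluster and 0.05 for all. The 1 past 2-fold was miR-18b-5p, at 6869 nRPM in wild type, 4754 in ΔmiR-19, 4414 in miR-19-only and 11429 in the full deletion. miR-20b-5p stood at 5979, 8200, 7136 and 13689 nRPM. In the miR-106b cluster, 1 of 5 was higher by 2-fold, miR-93-5p, and the median was -0.27; among all compared 5.96% were higher by 2-fold. miR-25-3p of that cluster stood at 36734 nRPM in miR-19-only and 24804 in the full deletion.

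Among groups known from pluripotent cells and early embryos, 7 members of the miR-302 cluster and 8 of the miR-290 cluster were compared. In the step from miR-19-only 0 of either were past 2-fold, beside 13.2% of all compared. The cluster medians were 0.52 and 0.29. In the intact background the first held 1 member past 2-fold, miR-302c-3p, and the second 3, beside 9.72% of all compared. These 3 were miR-293-3p, higher, and miR-293-5p and miR-295-3p, lower. Of the 66 Dlk1-Dio3 miRNAs compared, 6 were higher and 3 lower in the full deletion, and 1 higher and 4 lower in ΔmiR-19, with miR-494-3p in both sets. That is 9.09% higher and 4.55% lower in the full deletion, beside 5.96% and 7.21% of all compared, and 1.52% and 6.06% in ΔmiR-19, beside 3.45% and 6.27%. Their median was 0.08, which became -0.07 with plain totals and -0.19 with totals outside the cluster. 0 of 8 Hox-cluster miRNAs were past 2-fold in either step, beside 13.2% and 9.72% of all compared. miR-10b-5p, the most abundant of them, stood at 35292, 46569, 32179 and 39436 nRPM in wild type, ΔmiR-19, miR-19-only and full deletion.

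Among miRNAs that mark cell types, 3 of 9 mesenchymal miRNAs were lower by 2-fold in the full deletion, miR-199a-5p, miR-199b-5p and miR-214-3p, beside 7.21% of all compared. 0 were higher by 2-fold, and 2 of the 9 lay above miR-19-only, among them miR-140-3p, which stood at 5281 nRPM in miR-19-only and 10132 in the full deletion. The median was -0.97, and -0.82 with the nearly identical rows of miR-199a-3p and miR-199b-3p counted once. The count depended on the scaling. With TMM and with both median-ratio scalings 2 of the 9 were lower by 2-fold, beside 6.58% and 6.90% of all compared. With plain totals and with totals outside the cluster 5 were, beside 10.3% and 12.5% of all compared. In ΔmiR-19, 1 was lower, miR-199a-5p, and 2 were higher, miR-140-5p and miR-145-5p, with a median near 0. Among all compared 6.27% were lower and 3.45% higher in that step. The summed level of the 6 mesenchymal markers, miR-199a-5p among them, was 31204 nRPM in wild type, 31463 in ΔmiR-19, 36907 in miR-19-only and 25824 in the full deletion. These last are the highest and the lowest of the 8 genotypes. Its part in the difference of miR-199a-5p was not tested. In the intact background the sum was 1.01 times the wild-type level while miR-199a-5p was 0.334 times it. The 2 endothelial miR-126 arms summed to 7371 nRPM in miR-19-only, the lowest of the 8 genotypes, and 16209 in the full deletion.

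Blood markers, of which 7 of 8 were found, summed to 1223 nRPM in miR-19-only and 1821 in the full deletion, a ratio of 1.49. The former was the lowest of the 8 genotypes. Of the 7 blood-cell miRNAs compared, 0 were past 2-fold. miR-486-5p alone made up 608 and 1146 nRPM of the 2 marker sums, and its row holds nearly the same reads as that of miR-3107-3p. Of these markers miR-223-3p and miR-150-5p, both typical of white blood cells, were under 10 nRPM in all 8 genotypes and at 0 in the full deletion. Muscle and heart markers summed to 4703 and 3369 nRPM, a ratio of 0.716, with 0 of 3 past 2-fold; the heart had been dissected off. Neural markers had a ratio of 1.11, epithelial markers 1.29 and sensory markers 1.01. The neural group held 2 of 10 members lower by 2-fold, miR-135a-5p and miR-153-3p, and the miR-200 family 1 of 6, miR-429-3p. In the let-7 family 1 of 6 was lower, let-7e-5p. The share lower by 2-fold among all compared was 7.21%. The miR-15/16 family, the miR-322 cluster, the sensory miR-183 cluster, the Sfmbt2 miRNAs and the miR-34 family held 0 members past 2-fold in the step from miR-19-only, of 5, 8, 4, 3 and 2 compared. The share past 2-fold either way among all compared was 13.2% in that step. miR-210-3p, the miRNA induced by hypoxia, stood at 1934, 3145, 2104 and 2981 nRPM, with log2 ratios of 0.50 and 0.70.

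**Figure D5:**
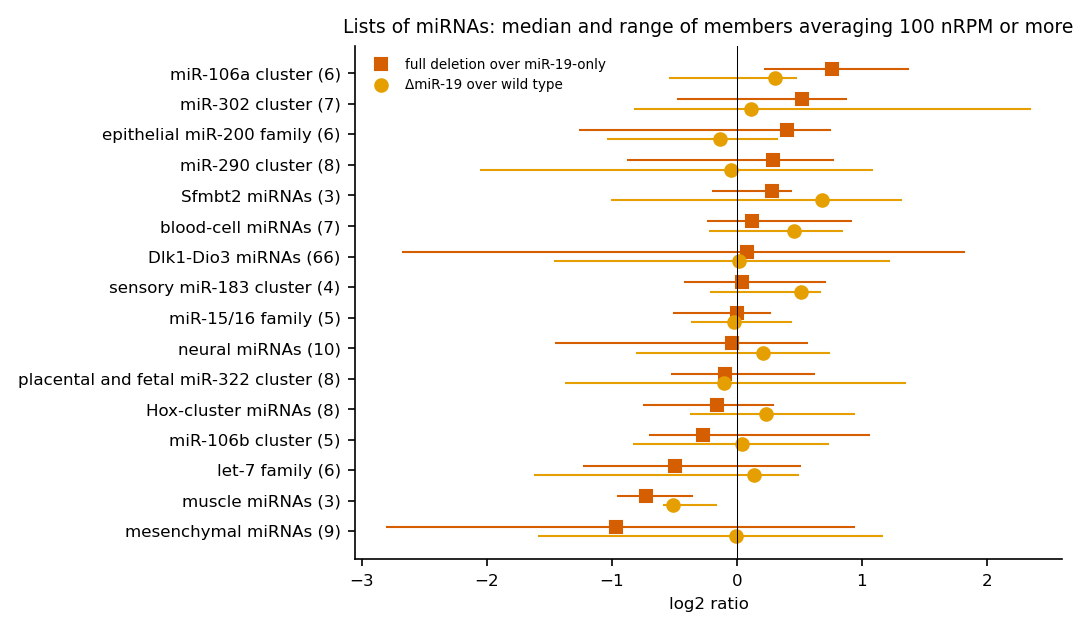
Median (symbols) and range (lines) of the log2 ratios of the members averaging at least 100 nRPM in each group with 3 or more such members, with the number of members in brackets, for full deletion over miR-19-only and ΔmiR-19 over wild type. The miR-106a cluster has the highest and the mesenchymal miRNAs the lowest median in the step from miR-19-only, at 0.76 and -0.97.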

How the data were processed

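Small RNA libraries of 8 genotypes and 1 library of undetermined reads, which was not analysed here, were given as 1 table of mature miRNAs. RNA was extracted with Trizol per the labels' protocols. Per the submitters' processing notes, the tools were STAR (2.2.0), featureCounts in Subread (1.4.2) and SAMtools (0.1.19), with mouse build mm9. No source used here says how multi-mapping reads were counted. The deposited signal values are reads that the authors divided by 1 factor per library: 100% of values came out as whole reads within 0.001 reads. The factors equal median-ratio size factors of all 9 libraries. Multiplying by 0.1159 gives nRPM.

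The table held 1046 rows for 977 accessions, 57 of them listed more than once. Repeated rows with totals within 10% of each other became 1 row, and 8 accessions stayed as separate rows, which left 986 rows. In these rows the compared libraries held 7070844 (wild type), 9288294 (ΔmiR-19), 12342926 (miR-19-only) and 9030388 (full deletion) reads. In the same order 1 read was worth 0.157, 0.105, 0.0693 and 0.105 nRPM.

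Ratios within a step came from 1 library a side and had no test. Log2 values have 1 nRPM added, a pseudocount that shrinks the ratios of scarce miRNAs, and 95% intervals are exact conditional (Clopper-Pearson) ones. For a count of 0 the share that 3 reads would make was also given. limma 3.58.1 (trend) tested the loss of miR-19 over 4 libraries, with Benjamini-Hochberg adjustment over all miRNAs averaging 10 nRPM, after a check on simulated data. edgeR 4.0.16 and DESeq2 1.42.0 on the recovered reads, other scalings, minimums, pseudocounts and fold limits were alternatives, and counting nearly identical rows once was chosen after seeing the data.

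The members, lists and tests were chosen with earlier results of these data known. The miRNAs named are all arms of the cluster and of miR-19; the 10 highest and 10 lowest ratios of full deletion over miR-19-only with at least 100 nRPM and 20 reads; up to 10 past 2-fold the same way and 5 opposite ways in both steps; up to 5 limma calls each way; and the 2 most abundant members of each of 21 lists. Seed relatives, partner arms, neighbours within 10000 bases and other names were added after their values were seen. Sequences are from RefSeq (GRCm38.p6; 773 of 986 rows matched by name) and annotations from GENCODE on GRCm38; no coordinate was converted from mm9.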

Additional observations from a re-analysis of the deposited data

Results flagged for a closer look

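For 4 miRNAs the loss of miR-19 went past 2-fold in opposite directions in the 2 backgrounds, each with 1 library a side, so the difference was not tested. miR-455-5p had a log2 ratio of 1.95 in full deletion over miR-19-only and -2.19 in ΔmiR-19 over wild type. miR-122-5p had -1.81 and 1.68, miR-494-3p had 1.34 and -1.46, and miR-30b-3p had -1.84 and 1.10. For miR-455-5p and miR-494-3p the wild-type and full-deletion libraries were both high, and for miR-122-5p both were low. The partner arms miR-455-3p and miR-30b-5p did not reverse between the steps, whereas miR-494-5p did.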

How the results depend on the processing

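The compared counts were those of 42 and 31 miRNAs past 2-fold in the steps from miR-19-only and from wild type, 4 the same way and 4 opposite. With a minimum of 30 nRPM they were 75 and 57, with 7 and 10, and with 300 nRPM 25 and 18, with 1 opposite. With a limit of 1.5-fold they were 120 and 93, with 17 the same way (8 lower, 9 higher) and 16 opposite; with 3-fold 12 and 8, with 0 and 2. The 4 lower in both were all found again with either pseudocount, either minimum, the 1.5-fold limit, TMM and both median-ratio scalings, while plain totals and totals outside the cluster each kept 3. The limma term called 3 miRNAs with totals outside the cluster, none of them outside the cluster. The summed miR-19 arms had log2 ratios of -4.63 and -4.56; these were -4.77 and -4.38 with plain totals, -4.89 and -4.52 with totals outside the cluster, and -4.58 in the first step with TMM. List medians moved for the miR-106a cluster (0.48 in the intact background), the sensory cluster (0.69) and the Dlk1-Dio3 miRNAs (0.20) with plain totals, for muscle miRNAs (-0.99) and Dlk1-Dio3 miRNAs (-0.19) in the step from miR-19-only with totals outside the cluster, and for muscle miRNAs in the intact background with 30 nRPM (0.40). Except for the scalings, which move every ratio alike, the cause was not tested. No paired analysis was possible because each genotype has 1 library and the labels give no replicate number. Leaving out a library leaves 0 residual degrees of freedom in the 4-library fit. Depth limits the deleted 5p arms, where 3 reads are up to 3.64% of the level before the deletion.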
